A study of Saccharomyces cerevisiae BY4741 with 8 samples.

Results

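The transcriptional response of budding yeast to 40 μg/ml KP1019, a ruthenium complex developed as an anticancer drug, was measured on 4 spotted genome arrays of the 8 in the series. These are the arrays whose titles give 40 μg/ml, and they hold 2 biological replicates, each hybridized to 2 arrays with reversed dyes. The treated cells were *Saccharomyces cerevisiae*, labelled BY4741, that had grown in glucose synthetic complete medium at 30 C to early log phase and then received KP1019 for 3 h. The untreated cells were the other portion of the same culture, which grew for the same 3 h with no drug, and no group carried another agent. Both kinds of cell were hybridized together on each array, one labelled with Cy5 and the other with Cy3, and each spot was read as treated over untreated. The other 4 arrays hold 80 μg/ml KP1019 and untreated cells in the same layout and are used here for comparison. A log2 ratio of 1 means that the signal of the treated cells was double that of the untreated cells, and values of 4 arrays are given in the order replicate 1 with treated cDNA in Cy5 and in Cy3, then replicate 2 likewise. Means carry the SD of both biological replicates (n = 2), and p-values are those of limma, adjusted by the Benjamini-Hochberg method over 6388 genes. Nothing in the labels says whether the replicates were separate cultures, so that these p-values measure only the spread between the samples given as biological samples. That spread was estimated from the samples of both doses together and moderated by that of other genes, not from the 2 samples at 40 μg/ml alone.

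Yeast cells whose DNA is damaged or whose replication forks stall activate the kinases Mec1 and Tel1, and through Rad53 and Dun1 the repressor Crt1 is lost from the genes of ribonucleotide reductase, which makes deoxynucleotides. The same pathway can hold cells with large buds before anaphase. Genes that act after mitosis in daughter cell separation, and histone genes, which serve S phase, are transcribed in narrow windows of the cycle. Yeast under stress also typically lowers the genes of ribosomes and translation. Efflux pumps of the pleiotropic drug resistance network are under control of the regulators Pdr1 and Pdr3. In RNA from whole cultures, fewer cells of a cycle stage and less RNA per cell cannot be told apart.

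The arrays at 40 μg/ml went against the strain label in their mating type genes. BY4741 is a MAT a strain, which should express the pheromone genes *MFA1* and *MFA2* and the receptor gene *STE2*, and should not express the alpha pheromone genes *MF(ALPHA)1* and *MF(ALPHA)2* or the receptor gene *STE3*. *MF(ALPHA)1* had intensities of 6194, 2023, 3168 and 5240 in the untreated channel of the arrays at 40 μg/ml, against 75.7 to 435 in the untreated channel of those at 80 μg/ml. Because arrays differ in brightness, each spot was also ranked among the 6388 genes of its channel. By that rank, in the untreated channel, *MF(ALPHA)1* stood between the percentiles 81.3 and 86.4 at 40 μg/ml and between 4.73 and 9.64 at 80 μg/ml. *MFA1* stood between the percentiles 20.7 and 30.8 at 40 μg/ml, whereas its lowest untreated rank at 80 μg/ml was 98.0. *MFA2* ranked between 8.57 and 31.1 at 40 μg/ml and from 93.0 upwards at 80 μg/ml. *STE3* ranked between 43.7 and 55.6 at 40 μg/ml and between 8.05 and 16.4 at 80 μg/ml. *STE2* had an intensity of 22430 in the untreated channel of 1 array (replicate 1, treated cDNA in Cy5), but 120 to 297 in that channel on the other 3 arrays at 40 μg/ml. Further genes of each kind, *SAG1* for alpha cells and *STE6*, *BAR1* and *AGA2* for a cells, were added after these values were seen and separated the doses in the same way by rank. Among the marker genes deleted or disrupted in BY4741, *LEU2* ranked between 16.4 and 29.7 in the untreated channel at 40 μg/ml, above the blank spots on 4 of 4 arrays, and *URA3* between 1.85 and 6.98, above them on 0 of 4, while *MET17* and *HIS3* were above the blank spots in both channels of all 8 arrays. The array sets of the 2 doses therefore differ in the expression of mating type genes, and in any comparison between them dose and strain cannot be told apart. The comparison of treated with untreated cells is made within each array and within 1 culture.

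**Figure D1:**
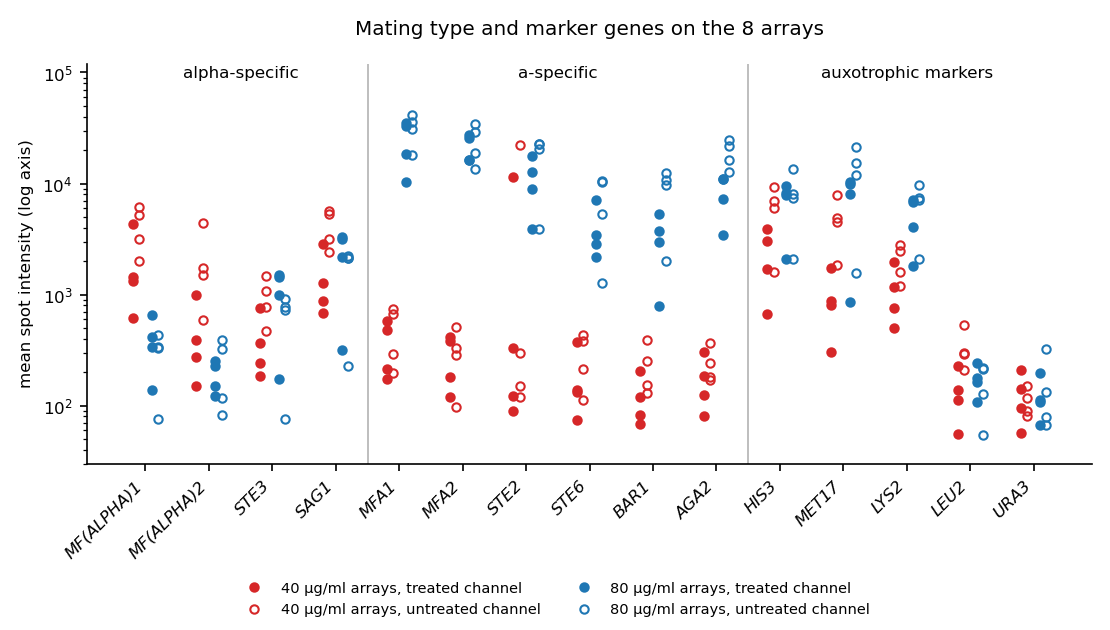
Mean spot intensity (log axis, before normalization) of alpha-specific, a-specific and auxotrophic marker genes on the 4 arrays at 40 μg/ml (red) and the 4 at 80 μg/ml (blue), with filled points for the treated and open points for the untreated channel. The a-specific genes are dim at 40 μg/ml and bright at 80 μg/ml, apart from *STE2* on 1 array at 40 μg/ml, and *MF(ALPHA)1* shows the opposite order.

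Median intensities at 40 μg/ml ranged over the 4 arrays from 287 to 1137 for treated cells and from 598 to 1768 for untreated cells. In the treated channel 67.0% to 91.7% of genes were above the blank spots, and in the untreated channel 86.0% to 94.0%. The log2 ratios of both dye orientations correlated across genes, which are not independent replicates, with r = 0.832 in replicate 1 and 0.698 in replicate 2. Replicate 1 had the wider log2 ratios, with a median absolute deviation of 0.68 against 0.39 in replicate 2. The treated channel was dimmer than the untreated one on all 4 arrays. Its medians in replicate 1 were 553 against 1768 and 304 against 598. In replicate 2 they were 287 against 628 (treated cDNA in Cy5) and 1137 against 1290 (Cy3). The part of this imbalance in the wider ratios was not tested. For the 12 genes spotted 17 times, the SD over spots of 1 array had a median of 0.18, against a median SD of 0.25 between biological replicates over all genes.

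Of 6388 genes, 828 were higher after treatment (13.0% of those tested) and 661 were lower (10.3%) at an adjusted p under 0.05. Of these, 805 of the higher and 657 of the lower genes had the same direction on 4 of 4 arrays. A change of more than 2-fold was reached by 301 higher and 212 lower genes, and more than 4-fold by 19 and 11. The larger change was in replicate 1 for 704 of the 828 higher and 557 of the 661 lower genes. From the authors' deposited ratios, whose normalization is not given in the sources used here, 1117 genes were higher and 575 lower. Of those calls 66.0% were in the higher direction, against 55.6% here. The median log2 ratio over all genes was 0.08 in the deposited ratios. List medians from the deposited ratios are to be read against that value. With each spot's local background subtracted, 247 genes were higher and 142 lower. Calls followed brightness: 9.62% of the 2130 dimmest genes were higher and 3.15% lower, against 16.1% and 18.8% of the 2129 brightest. Groups of genes are described below by how many measured members passed, to be read against 13.0% higher and 10.3% lower, and by the median log2 ratio of the group, which over all genes was -0.01. Counts under another setting are to be read against the totals of that setting, not against these shares. With the background subtracted, the totals were 247 higher and 142 lower of 5943 genes. Counts given below without replicate 1 or without replicate 2 rest on the 1 sample left at this dose. Their spread comes only from the samples at the other dose, whose arrays differ in mating type genes. These counts therefore do not test whether a change repeats between replicates. The medians given for each replicate do not depend on that spread.

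**Figure D2:**
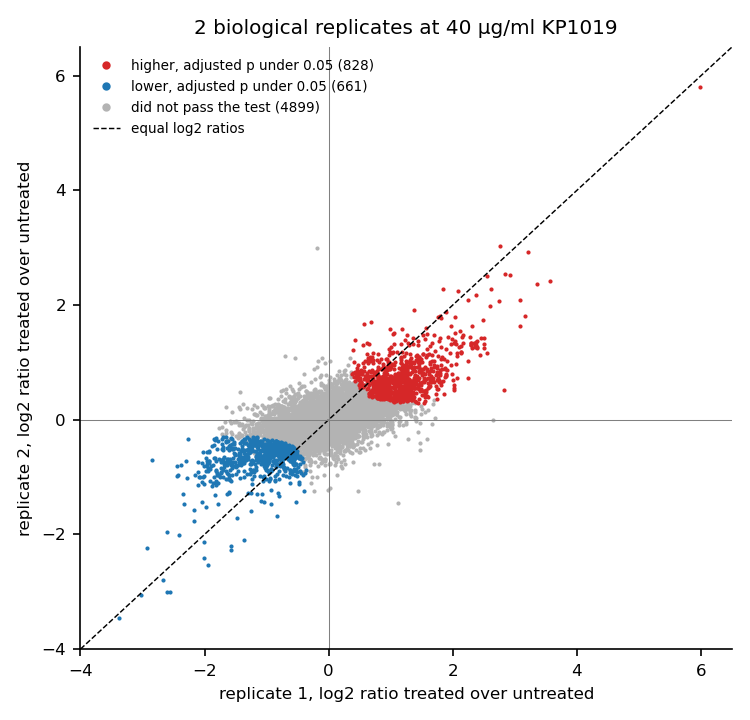
Log2 ratio of treated over untreated cells at 40 μg/ml in replicate 1 (horizontal) and replicate 2 (vertical) for 6388 genes, each the mean of 2 dye-reversed arrays; red and blue points mark the 828 higher and 661 lower genes. The cloud is wider along replicate 1, *HUG1* is the point near 6 on both axes, and 1 gene that did not pass, *AI2*, lies near 3 on replicate 2 alone.

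The genes of deoxynucleotide supply were led by *HUG1* (YML058W-A), which encodes a small inhibitor of ribonucleotide reductase. Its intensity was 15799, 8212, 10125 and 21645 in treated cells, against 541, 263, 367 and 477 in untreated cells. All treated values lay above all untreated ones, and the log2 ratios of 6.20, 5.79, 5.97 and 5.63 averaged 5.90 ± 0.14, which is 59.5-fold (adjusted p = 1.11e-05). *RNR3* (YIL066C), the damage-induced large subunit, had intensities of 1661, 1106, 527 and 4432 in treated cells and of 565, 220, 204 and 462 in untreated cells. Arrays differ in brightness and the ranges overlapped, but treated cells were higher on each array. The log2 ratios of *RNR3* were 3.23, 3.21, 2.44 and 3.39, an increase of 8.39-fold (adjusted p = 0.00033). The small subunit genes *RNR4* (YGR180C) and *RNR2* (YJL026W) rose 7.46-fold and 4.48-fold, with log2 ratios of 2.90 ± 0.19 and 2.16 ± 0.11. *RNR1*, the principal large subunit, rose by 1.27 ± 0.32. *DUN1*, the kinase that acts on both Crt1 and the inhibitor Sml1, rose by 1.98 ± 0.48, and *SML1* itself by 0.81 ± 0.21. In all, 9 of 13 measured genes of this list were higher and 0 lower, with a median of 1.00 (1.08 in replicate 1 and 0.67 in replicate 2). The dUTPase gene *DUT1* and the deaminase gene *DCD1* did not pass, at -0.49 and -0.51 (adjusted p = 0.072 and 0.084).

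**Figure D3:**
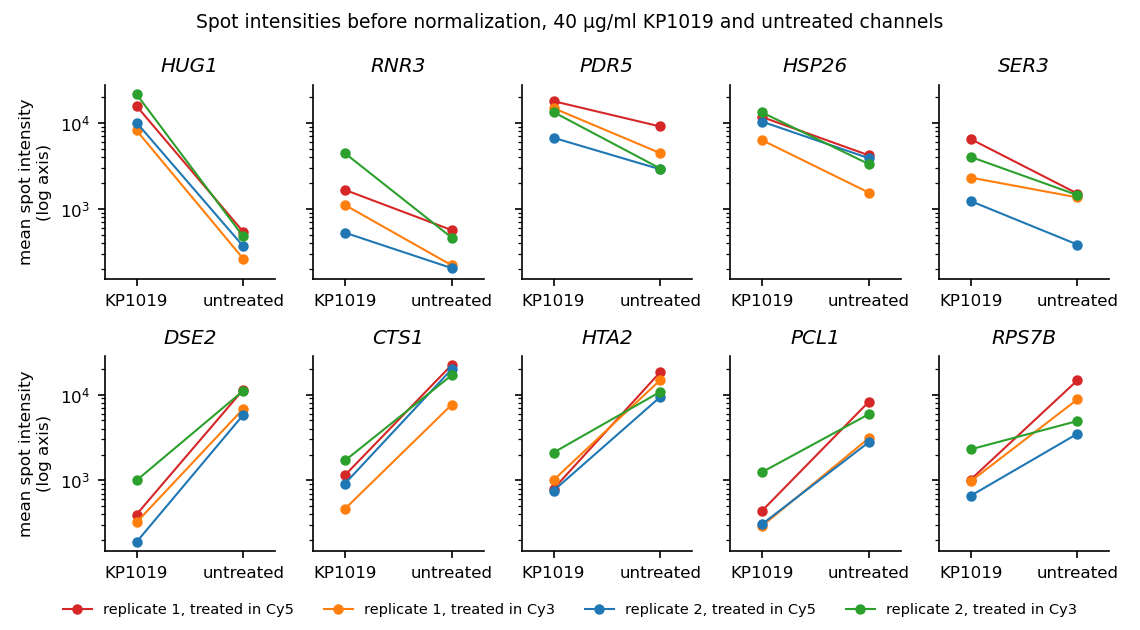
Mean spot intensity before normalization (log axis) in the KP1019 channel (left of each panel) and the untreated channel (right) for 10 genes, with 1 line per array at 40 μg/ml. The lines of the upper row fall towards the untreated channel and those of the lower row rise towards it on all 4 arrays.

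Of 16 measured genes of the DNA damage and replication checkpoint, 6 were higher and 0 lower (median 0.49). Beside *DUN1*, these were the effector kinase genes *CHK1* (1.43 ± 0.53) and *RAD53* (1.23 ± 0.44), the sensor kinase gene *TEL1* (1.18 ± 0.26), and *DDC1* (0.83 ± 0.33) and *MEC3* (0.75), which encode parts of the damage-sensing clamp. The clamp partner *RAD17*, at 0.49, and *DPB11*, at 0.49, did not pass (adjusted p = 0.083 and 0.087). In homologous recombination 4 of 15 were higher and 0 lower, with a median of 0.15 (0.50 with median centring and 0.52 from deposited ratios). Among them were *RDH54* (1.66 ± 0.67) and *RAD54* (1.08 ± 0.46), which encode DNA translocases that act with the recombinase, and *RAD50* (0.62 ± 0.19), a part of the end-processing complex. Only 4 of these 15 genes were above the blank spots in both channels of all 4 arrays. In base excision, direct reversal and mismatch repair, 5 of 18 were higher and 0 lower (6 and 5 without replicate 2). The largest change was in *DIN7* (YDR263C), a mitochondrial DNA nuclease gene, at 2.86 ± 0.70 with 3.33, 3.38, 2.34 and 2.38 on the 4 arrays. *NTG1*, a DNA glycosylase gene, rose by 1.13 ± 0.58 and *PMS1*, of mismatch repair, by 1.12 ± 0.28. The alkylbase glycosylase gene *MAG1*, at 0.72, stood just outside the threshold (adjusted p = 0.051).

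In nucleotide excision repair 3 of 16 genes were higher and 1 lower (7 and 1 without replicate 2). The higher genes included the helicase gene *SSL2* (1.15 ± 0.22) and *RAD14* (1.12 ± 0.38), which recognizes damaged DNA, while *RAD23*, which also serves the proteasome, was lower at -0.74 ± 0.60. Of 10 genes of post-replication repair and translesion synthesis 2 were higher, among them the polymerase gene *REV1* (1.65 ± 0.47), and 1 was lower, the ubiquitin-conjugating enzyme gene *RAD6* (-1.03 ± 0.76), against 5 and 3 without replicate 2. In DNA replication 8 of 44 were higher and 1 lower (15 and 4 without replicate 2). Here the primase gene *PRI2* (1.25 ± 0.26), the single-strand binding protein gene *RFA1* (1.08 ± 0.13), the flap nuclease gene *RAD27* (1.07 ± 0.47) and the origin recognition gene *ORC1* (1.02 ± 0.54) rose, and *RFC3*, of the clamp loader, was lower (-0.80 ± 0.37). The medians of these 3 lists lay between 0.19 and 0.29.

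Of 11 measured histone genes 9 were lower and 1 higher, with a median of -1.24 (-1.69 in replicate 1 and -1.29 in replicate 2). *HTA2* (YBL003C), encoding histone H2A, had intensities of 797, 1008, 759 and 2109 in treated cells and of 18252, 14777, 9372 and 10762 in untreated cells. The highest treated value was thus below the lowest untreated one, and its log2 ratio was -2.58 ± 0.48, or 5.99-fold lower (adjusted p = 0.000886). Its partner *HTB2*, for H2B, was lower by 3.92-fold (-1.97 ± 0.29), and *HHT2*, for H3, by 3.74-fold (-1.90 ± 0.61). *HTB1* stood at -1.74 ± 0.43 and *HTA1* at -1.63 ± 0.23, and both copies of the H3 and H4 genes and the variant *HTZ1* were lower as well. The linker histone gene *HHO1* did not pass (-0.51, adjusted p = 0.054). The 1 member that rose was *CSE4* (0.64 ± 0.04), which encodes the histone H3 variant of the centromere. *CSE4* did not pass with median centring, from the deposited ratios, with the background subtracted, with 40 μg/ml fitted alone or on the arrays with treated cDNA in Cy3. The H3 and H4 gene pairs have nearly the same coding sequence, and a spotted probe may not separate the copies.

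The largest decreases were in genes for separation of the daughter cell after division, which are transcribed largely in the daughter nucleus and include enzymes that break down the septum. Of 16 measured members 13 were lower and 0 higher, with a median of -1.98 (-1.76 in replicate 1 and -2.16 in replicate 2). *DSE2* (YHR143W), a secreted glucanase-like protein gene, had intensities of 400, 324, 191 and 998 in treated cells, against 11369, 6801, 5779 and 11036 in untreated cells. Its log2 ratios were -3.24, -3.52, -3.63 and -3.28, which is 10.7-fold lower (adjusted p = 0.000126). The chitinase gene *CTS1* (YLR286C) had 1151, 467, 918 and 1704 in treated and 22157, 7621, 19751 and 16794 in untreated cells, and was 8.24-fold lower with a log2 ratio of -3.04 ± 0.03. *EGT2* (YNL327W), a glycosylphosphatidylinositol-anchored wall enzyme gene, was 6.98-fold lower (-2.80 ± 0.28), and *DSE1* (YER124C) 6.86-fold lower (-2.78 ± 0.32). *PRY3* (YJL078C), a sterol-binding wall protein gene, was 6.64-fold lower (-2.73 ± 0.09). *SCW11* (-2.24 ± 0.42), *DSE4* (-2.21 ± 0.29), *SUN4* (-2.07 ± 0.08) and *AMN1* (-1.88 ± 0.44), the last a daughter-specific antagonist of mitotic exit, followed. In *DSE1*, *DSE4* and *SUN4* treated cells exceeded the blank spots on 3 of 4 arrays. The bud site marker gene *BUD9* and *CYK3*, of cytokinesis, did not pass (-0.74 and -0.66, adjusted p = 0.068 and 0.050). The median change here was the smaller one in replicate 1.

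**Figure D4:**
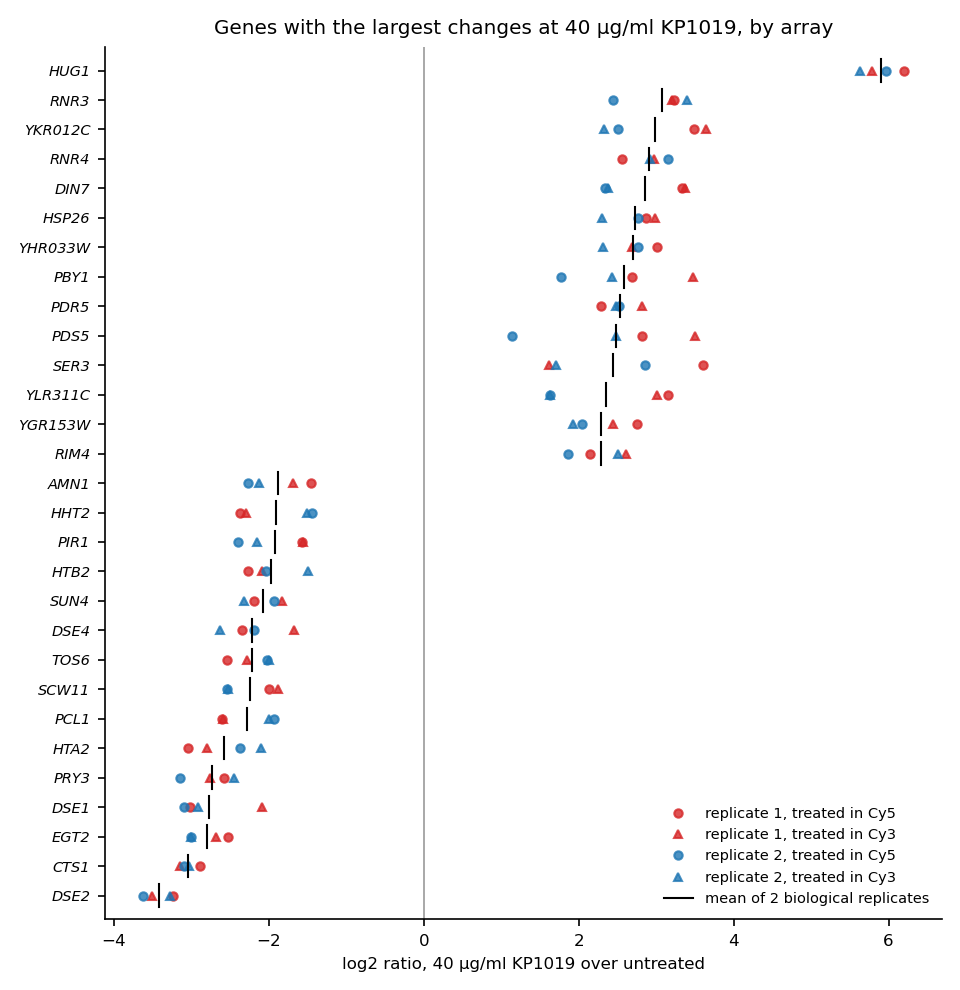
Log2 ratio of treated over untreated cells on each of the 4 arrays at 40 μg/ml for 14 of the 15 higher genes and the 15 lower genes with the largest means, with colour for the biological replicate, shape for the dye of treated cDNA and a bar for the mean of both replicates. *HUG1* lies near 6 on every array, and *SER3* is split by dye, with 3.61 and 2.86 where treated cDNA was in Cy5 against 1.61 and 1.71 in Cy3.

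Other cell wall genes did not move as 1 group. Among 8 measured PIR and SUN proteins 3 were higher and 3 lower. *PIR1* (YKL164C) was lower at -1.92 ± 0.50 while its relative *PIR3* was higher at 1.36 ± 0.15, and *NCA3*, of the SUN family, was higher at 2.06 ± 0.31. *TOS6* (YNL300W), a further anchored wall protein gene outside these lists, was lower at -2.21 ± 0.28. Of 19 GPI mannoprotein genes 4 were higher and 0 lower, with the flocculins *FLO11* (1.21 ± 0.45) and *FLO1* (1.15 ± 0.71) in the lead. Of 27 genes of glucan and chitin synthesis and remodelling 3 were higher and 6 lower (2 and 3 without replicate 1, 6 and 8 without replicate 2). *UTR2*, a chitin transglycosylase gene, was lower at -1.47 ± 0.47, and the glucan synthase gene *FKS1*, at -0.52, did not pass (adjusted p = 0.052). In the cell wall integrity pathway 2 of 15 were higher, with *ROM1*, an exchange factor gene for Rho1, at 1.53 ± 0.39, and 2 were lower. The medians of the last 3 lists lay between -0.04 and 0.14.

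Genes of cell cycle control changed in both directions. Among 16 G1/S cyclins and regulators 4 were higher and 3 lower. *PCL1* (YNL289W), a G1 cyclin gene for the kinase Pho85, had 443, 295, 310 and 1248 in treated and 8242, 3100, 2784 and 5903 in untreated cells, which is 4.86-fold lower (-2.28 ± 0.45). The transcription repressor gene *NRM1* (1.20 ± 0.06), the activator gene *SWI4* (1.16 ± 0.47) and the S phase cyclin gene *CLB5* (0.92 ± 0.26) were higher, and the G1 cyclin gene *CLN2* did not pass (-0.59, adjusted p = 0.051). In the G2/M cluster 5 of 23 were higher and 1 lower (6 and 3 without replicate 2). *CDC20*, the anaphase activator of the ubiquitin ligase that releases sister chromatids, stood at 1.80 ± 0.24 with 2.52, 1.42, 2.07 and 1.20, so that its values were higher where treated cDNA was in Cy5. *SPO12* (1.34 ± 0.03) and *DBF2* (1.28 ± 0.52), both of mitotic exit, were also higher. In the list of mitotic exit and the anaphase promoting complex, 5 of 26 were higher and 1 was lower, *NET1* (-1.03 ± 0.81), which holds the exit phosphatase in the nucleolus. The counts without replicate 2 were 9 and 3. Of 9 cohesin genes 2 were higher, *PDS5* at 2.48 ± 0.95 and *ECO1* at 0.67 ± 0.32. The subunit gene *SMC1*, at 0.30, did not pass (adjusted p = 0.21).

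Among 18 tubulins, kinesins and spindle proteins 2 were higher and 1 lower. The alpha-tubulin gene *TUB1* was higher at 1.33 ± 0.27 and the beta-tubulin gene *TUB2* lower at -0.88 ± 0.67. For dynein and dynactin 3 of 13 were higher and 0 lower (5 and 0 without replicate 2), namely *ARP10* (1.21 ± 0.63), *ARP1* (1.15 ± 0.25) and *NUM1* (0.65 ± 0.18), which encode dynactin subunits and the cortical anchor of dynein. Of 12 septins and bud neck kinases, the septin genes *CDC3* (-1.06 ± 0.52) and *CDC12* (-1.04 ± 0.46) were lower with 1 further member, and 2 genes of the kinase pathway at the neck, among them *HSL1* (0.76 ± 0.43), were higher (6 without replicate 2 and 0 with median centring).

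The translation apparatus held the largest number of lower genes. In the list of 138 cytosolic ribosomal protein genes, which also holds the RNase P gene *RPP1* (-0.20, not passing), 69 were lower and 1, *RPL2A*, was higher, and 116 were below 0 in both replicates. The median was -0.60, with -0.84 in replicate 1 and -0.42 in replicate 2. *RPS7B* (YNL096C) had the lowest mean, at -1.65 ± 0.89, with intensities of 1021, 976, 661 and 2298 in treated and 14637, 8770, 3489 and 4913 in untreated cells. It was followed by *RPS9A* (-1.59 ± 1.12), *RPL8B* (-1.53 ± 0.77) and *RPS13* (-1.52 ± 0.73). Without replicate 1 there were 48 lower genes and without replicate 2 there were 89, and 9 with the background subtracted, a setting under which 142 genes of all passed as lower. *RPL2A* is nearly identical in sequence to *RPL2B*, which was lower (-0.87 ± 0.33), and most ribosomal protein genes come in such pairs that a probe may not separate.

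Of 18 aminoacyl-tRNA synthetases 15 were lower and 0 higher, with a median of -1.12 (-1.44 in replicate 1 and -0.78 in replicate 2). The synthetase genes for tryptophan, tyrosine and leucine, *WRS1* (-1.63 ± 0.68), *TYS1* (-1.57 ± 0.63) and *CDC60* (-1.56 ± 0.85), were the lowest, and *GUS1*, for glutamate, did not pass (0.44, adjusted p = 0.11). Among 35 translation initiation, elongation and termination factors 20 were lower and 0 higher (median -0.71). Both genes for the initiation helicase eIF4A, *TIF1* (-1.54 ± 0.77) and *TIF2* (-1.44 ± 0.77), *TIF11* (-1.40 ± 0.91), *TEF4* (-1.29 ± 0.64) and *SUI2* (-1.28 ± 0.48) led this list. In ribosome biogenesis 20 of 122 were lower and 4 higher, with a median of -0.27. By replicate this median was -0.40 in replicate 1 and -0.10 in replicate 2. The nucleolar methyltransferase gene *NOP1* (-1.37 ± 0.57) and the pseudouridine synthase gene *CBF5* (-1.03 ± 0.46) were among the lower genes. Of 27 genes for subunits and initiation factors of RNA polymerases I and III, which make ribosomal and transfer RNA, 4 were lower and 0 higher (12 lower and 2 higher without replicate 2), led by *RPC19* (-1.39 ± 0.79). Of 67 mitochondrial ribosomal protein genes 4 were higher and 4 lower, in each direction a smaller share than over all genes, and 59 did not pass. Their median was -0.24 (-0.37 in replicate 1 and -0.06 in replicate 2).

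**Figure D5:**
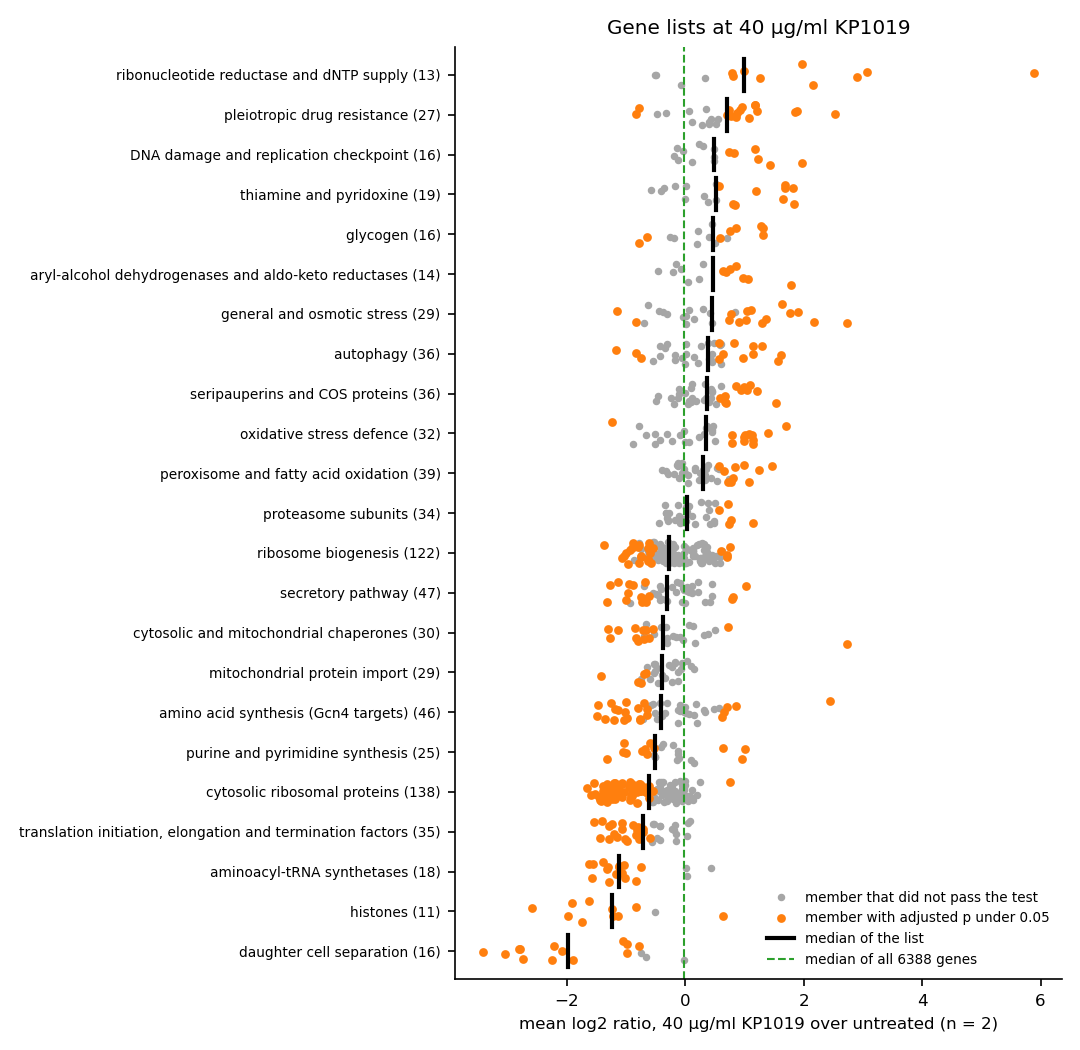
Mean log2 ratio at 40 μg/ml of the members of 23 gene lists (number measured in brackets), with orange points for members at an adjusted p under 0.05, black bars for list medians and a green dashed line for the median of all genes. Deoxynucleotide supply has the highest median at 1.00, and synthetases, histones and daughter cell separation have the lowest at -1.12, -1.24 and -1.98.

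Enzymes of biosynthesis were lower in part. Among 46 amino acid synthesis genes under Gcn4, 17 were lower and 5 higher (median -0.41). *HOM2* (-1.49 ± 0.60) of the threonine and methionine branch, *ARO2* (-1.47 ± 0.25) of aromatic synthesis, *ILV3* (-1.36 ± 0.64) of the branched-chain pathway and *LYS12* (-1.26 ± 0.61) of lysine synthesis were lower, and *GCN4* itself did not pass (-0.71, adjusted p = 0.089). *SER3* (YER081W), which starts serine synthesis, went the other way at 2.45 ± 0.23, with 6500, 2312, 1230 and 4028 in treated cells against 1507, 1359, 383 and 1446 in untreated cells. In sulfur assimilation and methionine 6 of 24 were lower and 0 higher (8 and 6 without replicate 2), with *SAM2* (-1.17 ± 0.40) and *CYS4* (-1.15 ± 0.57) in the lead. Of 25 genes for purine and pyrimidine synthesis 9 were lower and 3 higher (median -0.51). The lower count was 3 without replicate 1 and 14 without replicate 2. *IMD3*, for the first step to guanine nucleotides, was lower at -1.32 ± 0.38, and *URA10*, a minor isozyme gene of uracil synthesis, was higher at 1.01 ± 0.16. Among 20 amino acid permeases 6 were lower, with *DIP5* (-1.26 ± 0.01) and *AGP1* (-1.06 ± 0.30) the lowest, and 1 was higher (9 and 4 without replicate 2). In nitrogen catabolism 4 of 25 were higher, with the glutamate dehydrogenase gene *GDH3* at 1.87 ± 0.89, and 1 was lower, the glutamine synthetase gene *GLN1* at -1.48 ± 0.54, against 8 higher and 5 lower without replicate 2.

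Of 30 cytosolic and mitochondrial chaperones 11 were lower and 2 higher (7 lower without replicate 1). *SBA1* (-1.30 ± 1.36), *BTN2* (-1.26 ± 0.60) and *HSP30* (-1.13 ± 0.33) were lower. For *SBA1* the SD exceeded the mean change, so that its replicates stood far apart. The small heat shock gene *HSP26* (YBR072W) had intensities of 11733, 6305, 10376 and 13267 in treated cells and of 4203, 1546, 3889 and 3320 in untreated cells, a 6.63-fold increase (2.73 ± 0.28, adjusted p = 0.00033). In ER folding and the unfolded protein response 5 of 19 were lower and 3 higher, and 2 and 9 were lower without replicate 1 and without replicate 2. The ER chaperone gene *KAR2* averaged -1.77 ± 1.52 but stood at -2.85 in replicate 1 and -0.70 in replicate 2. The calnexin gene *CNE1* was higher (1.03 ± 0.59). In the secretory pathway 13 of 47 were lower and 3 higher. Without replicate 1 there were 8 lower genes, and without replicate 2 there were 21. *SEC61*, the pore of the ER membrane, was lower at -1.32 ± 0.36 and the coat gene *SEC28* at -1.27 ± 0.77. For mitochondrial protein import 5 of 29 were lower and 0 higher (2 lower without replicate 1 and 16 without replicate 2), led by the receptor gene *TOM70* (-1.42 ± 0.74).

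Of 34 proteasome subunits 5 were higher and 0 lower, with the ATPase gene *RPT1* at 1.15 ± 0.32. The median of this list was -0.20 in replicate 1 and 0.33 in replicate 2, which are of opposite sign, and without replicate 2 there were 8 higher and 11 lower. In autophagy 10 of 36 were higher and 3 lower (11 and 1 without replicate 1, 15 and 7 without replicate 2), with a median of 0.39. *ATG45* (1.62 ± 0.64), *ATG10* (1.56 ± 0.56) and *ATG2* (1.29 ± 0.72) were higher, and *ATG39*, an autophagy receptor of the nuclear envelope, stood at 1.15 ± 0.19. The initiating kinase gene *ATG1* did not pass (0.61, adjusted p = 0.058), and *ATG41* was lower (-1.17 ± 1.00). Among 24 vacuolar hydrolases and V-ATPase subunits 3 were higher, with *CPS1*, a carboxypeptidase gene, at 1.41 ± 0.05, and 4 were lower. In vacuolar protein sorting 4 of 42 were higher and 4 lower. Without replicate 2 these lists had 5 higher and 8 lower, and 9 higher and 8 lower.

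Among 27 members of the pleiotropic drug resistance list 14 were higher and 2 lower, with a median of 0.71 (0.59 in replicate 1 and 0.57 in replicate 2). The efflux pump gene *PDR5* (YOR153W) had intensities of 17959, 14903, 6726 and 13400 in treated cells, against 9113, 4458, 2886 and 2948 in untreated cells. Its log2 ratios of 2.29, 2.82, 2.52 and 2.48 differed little between arrays and averaged 2.53 ± 0.04, which is 5.76-fold (adjusted p = 0.00033). The polyamine exporter gene *TPO1* was higher by 3.70-fold (1.89 ± 0.01) and the pump gene *PDR15* by 3.63-fold (1.86 ± 0.58), followed by *PDR10* (1.22 ± 0.31) and the sphingoid base transporter gene *RSB1* (1.19 ± 0.18). The pump genes *SNQ2* and *ATR1* did not pass (0.56 and 0.53, adjusted p = 0.081 and 0.057). The 2 lower members were the exporter genes *QDR2* (-0.83 ± 0.27) and *TPO4* (-0.78 ± 0.10). The counts were 14 and 2 without replicate 1, 18 and 4 without replicate 2, and 9 and 0 with the background subtracted.

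In oxidative stress defence 11 of 32 were higher and 1 lower (median 0.36), with 13 and 9 without replicate 2. The glutathione transferase gene *GTT1* (1.70 ± 0.42), the NADPH oxidoreductase gene *OYE3* (1.41 ± 0.24) and *YAP1* (1.14 ± 0.15), the activator of this defence, were higher, and the thioredoxin reductase gene *TRR1* was lower (-1.24 ± 0.50). The aryl-alcohol dehydrogenases and aldo-keto reductases had 7 of 14 higher and 0 lower. *GRE2*, a methylglyoxal reductase gene, was the highest of these at 1.79 ± 0.01 (1.89, 1.68, 2.13 and 1.47), followed by *AAD3* (1.07 ± 0.20). The *AAD* genes are close relatives, and their probes may share signal. Of 29 genes of general and osmotic stress 13 were higher and 2 lower (median 0.45). Beside *HSP26*, *FMP16* (2.17 ± 0.12), *SIP18* (1.91 ± 0.17), *MOH1* (1.77 ± 0.02) and *RTN2* (1.63 ± 0.86) were higher, while the regulator gene *XBP1* did not pass (0.84, adjusted p = 0.070). The glycerol phosphatase gene *GPP1* was lower at -1.16 ± 0.47.

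Storage carbohydrate genes were higher in part. In the glycogen list 6 of 16 were higher and 2 lower (median 0.47), and these included both enzymes of glycogen breakdown, the debranching enzyme gene *GDB1* (1.32 ± 0.53) and the phosphorylase gene *GPH1* (1.28 ± 0.68). Of 7 trehalose genes 2 were higher, the trehalase genes *NTH1* (1.14 ± 0.85) and *ATH1* (0.84 ± 0.17), and 1 was lower. Without replicate 1 there were 0 calls in this list. *NTH1* rested on 1 array at 3.00, with 0.32 to 0.74 on the others. Among 39 genes of the peroxisome and fatty acid oxidation 10 were higher and 0 lower, with a median of 0.30 (2 and 0 with the background subtracted). The thiolase gene *POT1* (1.46 ± 0.62) and *PEX19* (1.24 ± 0.55), an import receptor for peroxisomal membrane proteins, led them. In central carbon metabolism the calls were 3 higher and 3 lower of 22 genes in glycolysis and fermentation, 1 and 1 of 16 in the TCA cycle, 2 and 2 of 35 in the respiratory chain and ATP synthase, and 3 and 3 of 11 in the pentose phosphate pathway. In gluconeogenesis and the glyoxylate cycle 1 of 14 was higher and 2 were lower. The medians in replicate 1 and replicate 2 were -0.53 and -0.0017 for the respiratory chain and ATP synthase. For the TCA cycle they were -0.41 and -0.08, and for glycolysis and fermentation 0.09 and 0.05. For gluconeogenesis and the glyoxylate cycle they were -0.19 and -0.03. Among these genes the pyruvate decarboxylase isozyme gene *PDC6* (1.31 ± 0.05) and the phosphogluconate dehydrogenase isozyme gene *GND2* (1.65 ± 0.38) were higher, and the citrate synthase gene *CIT2* (-1.59 ± 0.16) and the ATP synthase gene *ATP2* (-1.25 ± 0.97) were lower. Of 20 hexose transporters 6 were higher, led by *HXT14* (1.29 ± 0.32). The median of this list was 0.01, and 0.57 with median centring in place of loess. Without replicate 1 there were 5 higher and 3 lower, and these genes are close relatives.

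In fatty acid synthesis 5 of 11 were lower and 1 higher. They included *ACS2* (-1.36 ± 0.61), which makes acetyl-CoA, the synthase gene *FAS1* (-1.15 ± 0.49) and the carboxylase gene *ACC1* (-1.02 ± 0.33). Sterol synthesis had 5 of 25 higher, among them *ERG25* (1.10 ± 0.09) and *HMG1* (1.00 ± 0.62), and 3 lower, all of the mevalonate branch, namely *ERG13*, *MVD1* (-0.89 ± 0.15) and *ERG12* (-0.75 ± 0.01). In inositol and phospholipid synthesis 4 of 16 were higher, led by *PSD2* (1.19 ± 0.38), and 1 was lower. Without replicate 2, 6 sterol and 4 phospholipid genes were lower.

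Thiamine and pyridoxine genes were higher in 9 of 19 cases and lower in 0 (9 and 3 without replicate 2), with a median of 0.53. The near-identical genes *THI5*, *THI11*, *THI12* and *THI13*, which make the pyrimidine part of thiamine, stood at 1.84 ± 0.41, 1.82 ± 0.50, 1.68 ± 0.48 and 1.69 ± 0.51, and their probes are likely to share signal. *THI4*, which makes the thiazole part, was higher at 1.66 ± 0.66 (2.24, 2.02, 1.12 and 1.26), with intensities of 606, 367, 170 and 1552 in treated and 566, 208, 157 and 733 in untreated cells, ranges that overlap. In the polyamine list *TPO1* was the 1 higher of 10 members, and 2 were lower, with the spermidine synthase gene *SPE3* at -1.03 ± 0.53.

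In the iron regulon 4 of 30 were higher and 5 lower (9 and 10 without replicate 2). The high-affinity iron uptake genes *FET3* (-1.52 ± 0.51) and *FTR1* (-1.34 ± 0.43), which encode the oxidase and the permease of 1 complex, and the low-affinity transporter gene *FET4* (-1.10 ± 0.16) were lower. The vacuolar transporter gene *SMF3* (1.24 ± 0.32) and the heme oxygenase gene *HMX1* (1.14 ± 0.61) were higher. Of 16 zinc and copper genes 2 were higher and 3 lower. The copper metallothionein genes *CUP1-1* and *CUP1-2*, which are identical copies, were lower (-1.42 ± 0.24 and -1.19 ± 0.16), while the second metallothionein gene *CRS5* was higher at 1.27 ± 0.21. *CUP1-1* had intensities of 5235, 7559, 5706 and 6711 in treated cells, all below its 33910, 35006, 42084 and 29135 in untreated cells. In the phosphate regulon 1 of 18 was higher, the transporter gene *PHO89* (1.29 ± 0.42), and 3 were lower (4 and 7 without replicate 2).

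Genes of meiosis and sporulation were higher in 7 of 32 cases and lower in 2. Their median was 0.15, and 0.60 with median centring, under which 12 were higher (5 without replicate 1 and 13 without replicate 2). *RIM4* (YHL024W), an RNA-binding protein gene of early meiosis, had intensities of 738, 794, 431 and 1844 in treated and 487, 254, 269 and 367 in untreated cells, an increase of 4.86-fold (2.28 ± 0.14). *SPR3*, a sporulation septin gene, stood at 1.86 ± 0.98, *DIT1*, of the spore wall, at 1.77 ± 0.37, and *DMC1*, the meiotic recombinase gene, at 1.46 ± 0.25. Of 32 members 10 were above the blank spots in both channels on all arrays. In the mating pheromone response 2 of 26 were higher, *FUS2* (0.85 ± 0.43) and *FUS1* (0.60 ± 0.14), and 1 was lower, *AGA1* (-0.74 ± 0.22), against 7 and 5 without replicate 2.

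Among genes near chromosome ends, 11 of 36 seripauperins and COS proteins were higher and 0 lower (18 and 2 without replicate 2), with *COS12* at 1.54 ± 0.05 and *PAU5* at 1.21 ± 0.58. A list of 8 Y' element helicases, taken after values were seen, was higher throughout, between 1.78 and 1.88 (*YRF1-1*, 1.88 ± 0.72). These 8 genes are repeats of nearly 1 sequence and give 1 measurement rather than 8. Their replicate medians were 2.37 and 1.30. In other core machinery, pre-mRNA splicing and the nuclear pore had a smaller share of calls in each direction than all genes. RNA polymerase II and Mediator had 13.5% higher and 16.2% lower, against 13.0% and 10.3% of all genes. There were 5 higher and 6 lower of 37 genes in RNA polymerase II and Mediator, 2 and 3 of 44 in pre-mRNA splicing, and 1 and 2 of 28 in the nuclear pore. Without replicate 2 the medians of these lists were -0.06, 0.10 and -0.03, in the same order. The polymerase subunit gene *RPB8* was lower at -1.62 ± 1.15 and the Mediator gene *SRB6* higher at 1.31 ± 0.55. Of 28 genes of the mitochondrial genome, whose transcripts largely lack the tails that the labelling primed on, 2 were higher, against 7 with median centring, 13 from deposited ratios and 0 with the background subtracted, and 1 was above the blank spots on all arrays. That 1 was *OLI1*, an ATP synthase subunit gene, at 1.58 ± 0.03.

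Several of the largest changes were in genes outside all lists. *YHR033W*, a relative of a glutamate kinase gene, was 6.47-fold higher (2.69 ± 0.22), *PBY1* 6.01-fold (2.59 ± 0.69) and *YGR153W* 4.90-fold (2.29 ± 0.43). *YKR012C* stood at 2.99 ± 0.81 (3.48, 3.64, 2.50 and 2.33) and *YLR311C* at 2.35 ± 1.03. Of the 6388 genes, 539 had no match in the RefSeq annotation. They had a median intensity of 199, against 1318 for the matched genes, and 75 of them were higher and 6 lower.

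The change at 40 μg/ml differed from that at 80 μg/ml for 9 genes (0.141% of those tested), and 1337 genes had an unadjusted p under 0.05. Dose, strain and array set cannot be told apart in these differences, which are given as 80 minus 40 μg/ml. *INO1*, the inositol phosphate synthase gene, stood at -0.15 ± 0.08 at 40 μg/ml and at -3.80 at 80 μg/ml (difference -3.65, adjusted p = 0.00174). *HSP26* stood at 2.73 at 40 μg/ml and at 0.18 at 80 μg/ml (difference -2.55). Its untreated intensity was 1546 to 4203 at 40 μg/ml and 8026 to 30525 at 80 μg/ml, while its treated intensity was 6305 to 13267 and 9960 to 30437. For *DSE2*, at -3.41 at 40 μg/ml and -0.01 at 80 μg/ml (difference 3.40), both channels were above the blank spots on 1 of the 4 arrays at 80 μg/ml, so that 3 of these arrays give no ratio above background. *NFG1* was the reverse case, with 0 of 4 treated and 3 of 4 untreated channels above the blank spots at 40 μg/ml, where it stood at -0.12, and -1.96 at 80 μg/ml. The other genes were *WSC4* (difference -2.16), *ZPS1* (-2.08), *YHR033W* (-1.83), *YGR035C* (1.99) and *PCL1* (2.55). With the background subtracted 0 genes passed by limma, and 905 had an unadjusted p under 0.05. Of the 828 higher and 661 lower genes at 40 μg/ml, 83 and 51 were called in the same direction at 80 μg/ml, where 135 genes were higher and 90 lower in all. The cytosolic ribosomal proteins, with a median of -0.60 at 40 μg/ml, had one of -0.03 at 80 μg/ml, and the synthetases -1.12 and -0.40. Daughter cell separation had -1.98 and -2.04, and pleiotropic drug resistance 0.71 and 0.66. For these medians the difference was not tested.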

How the data were processed

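RNA of treated and untreated yeast was compared on 2-colour spotted arrays. The authors quantified the scanned images in MagicTool with an adaptive circle, and the deposited spot intensities (Cy5 red, Cy3 green, with local background) were not normalized. A second deposited table holds the authors' normalized ratios as signed fold changes of red over green, with the normalization method not given in the sources used here. It served as an alternative.

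Mean spot intensities were corrected with normexp (offset 50) and normalized by loess within each array in limma 3.58.1 (R 4.3.3), with 23 control and 85 blank features at weight 0. Spots of a gene were averaged, ratios were turned to treated over untreated, and both dye orientations were averaged per biological sample. limma was fitted to the 4 biological samples of both doses, which share 1 estimate of the spread (2 residual and 5.66 prior degrees of freedom), with two-sided tests, Benjamini-Hochberg adjustment over 6388 genes and a threshold of 0.05. A spot was above the blanks where it exceeded their median by 3 median absolute deviations. Gene names come from the files and, for 5849 genes, RefSeq. The fit was tested on simulated data.

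Named genes are the 15 higher and 15 lower genes with the largest means that changed the same way on 4 of 4 arrays, up to 5 called members and 2 others of each of 68 lists, and markers of the strain. The members and lists were chosen with earlier results of these data known, and 2 lists were added later. *RNR1*, *SML1*, *MEC3*, *HTZ1*, *CSE4*, *RPL2A*, *RPL2B*, *RPP1*, *QDR2*, *GPP1*, *ERG12* and the genes whose replicates differ were named after their values were seen. A result on 1 gene is not reported here, and promoter motifs were not analysed here. Alternatives were other background corrections, normalizations, spot signals, filters and sample sets. The number of arrays limits the precision.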

Additional observations from a re-analysis of the deposited data

Results flagged for a closer look

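Of 249 sets of 4 array values examined at 40 μg/ml, 9 held an array that stood far from the other 3 by Dixon's criterion at 95%. Its chance rate of about 1 in 20 groups is for 4 independent values. Here the 4 values are 2 dye-reversed arrays of each of 2 replicates, so that this rate need not apply. *STE2* read 11446 for treated and 22430 for untreated cells on 1 array (replicate 1, treated cDNA in Cy5), against 88.8 to 332 in treated and 120 to 297 in untreated cells on the others. *NTH1* stood at 3.00 on the array of replicate 1 with treated cDNA in Cy3 and between 0.32 and 0.74 on the others. Single arrays also stood apart for *TEL1* (1.75), *SSL2* (1.64) and *PRI2* (1.75) above the other 3, and for *RAD50* (0.15), *SIP18* (1.51) and *HXT14* (0.69) below them. All of these log2 ratios were above 0.

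The change differed between 80 and 40 μg/ml by limma's test of the difference (80 minus 40) for *INO1* (-3.65), *HSP26* (-2.55), *WSC4* (-2.16), *ZPS1* (-2.08), *NFG1* (-1.84), *YHR033W* (-1.83), *YGR035C* (1.99), *PCL1* (2.55) and *DSE2* (3.40). The mating type genes also differ between these array sets, and dose and strain cannot be told apart.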

How the results depend on the processing

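Against 828 higher and 661 lower genes, subtracting the background left 247 and 142 (5943 genes tested), the arrays with treated cDNA in Cy3 gave 524 and 361, and the 3.5-fold criteria of the methods, which use no test, gave 14 and 10. Leaving out 1 replicate gave 616 (without replicate 1 at 40 μg/ml) to 1541 higher and 464 to 1518 lower genes (without replicate 2). With the replicate number as a block there were 984 higher and 793 lower genes and 440 that differed between doses. The deviations of same-numbered samples correlated with r = -0.14. With 2 samples per dose, the crossed pairing has the same value with the opposite sign. This value therefore cannot show which samples belong together. The crossed pairing, added after seeing the data, gave 1128, 999 and 830. Other settings that kept both replicates at 40 μg/ml gave 749 to 1117 higher and 557 to 804 lower genes.

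The 9 genes that differed between doses became 0 with the background subtracted (905 at an unadjusted p under 0.05), 3 with total spot signal, 5 from deposited ratios, 599 with arrays scaled to 1 spread, 14 and 16 with treated cDNA in Cy5 or Cy3 alone, and 29 to 2339 without 1 replicate. This count depends on the setting more than the others do.

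Of 214 genes named with a log2 ratio, 61 lost their call with the background subtracted and 21 on the Cy3 arrays. Signs turned only for genes that did not pass. These were *RAD17* on the Cy5 arrays (-0.11), *RPP1* from deposited ratios (0.033), *NFG1* with median centring (0.39) and deposited ratios (0.31), and *WSC4* with the background subtracted (-0.0015), median centring (-0.10), deposited ratios (-0.00671) and the Cy3 arrays (-0.097). Without replicate 1 and without replicate 2, *RPP1* stood at 0.12 and -0.52, *WSC4* at 0.042 and -0.033, *AI2* at 2.99 and -0.18, *HXT2* at -1.45 and 1.12, *YKR075C* at -0.014 and 2.64, and *MTH1* at -0.53 and 1.47. The cause was not tested. Genes near the blank spots, a common case in meiosis and recombination, have ratios limited by signal over background. Over all 6388 genes, 4177 were above the blank spots in both channels of all 4 arrays. In the mating pheromone response 9 of 26 were, and in cohesin 4 of 9. For dynein and dynactin the count was 6 of 13, and for hexose transporters 9 of 20. The mating pheromone median of -0.09 was 0.19 with median centring and 0.25 from deposited ratios.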

Other observations

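A few genes, picked after their values were seen, differed between the biological replicates at 40 μg/ml. *HXT2*, a hexose transporter gene, stood at 1.11 and 1.13 in replicate 1 and at -1.54 and -1.37 in replicate 2. *MTH1*, a repressor gene of hexose transporter genes, stood at 1.44 and 1.51 in replicate 1 and at -0.34 and -0.71 in replicate 2. *YKR075C* stood at 2.67 and 2.62 in replicate 1 and near 0 in replicate 2 (mean -0.01). *MPC3*, a mitochondrial pyruvate carrier gene, averaged 2.82 in replicate 1 and 0.52 in replicate 2. *AI2*, a mitochondrial intron gene, stood at 5.26 on 1 array of replicate 2 and between -0.41 and 0.72 on the other 3, so that here 1 array and not a replicate stands apart.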
